A study of Homo sapiens with 12 samples.

Results

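The genes described are 10 members and partners of the tumour necrosis factor (TNF) superfamily that carry death and survival signals at the cell surface. They were chosen by name: the ligands TNFSF10 and TNFSF15, the receptors TNFRSF10A, TNFRSF10B, FAS, TNFRSF10D, TNFRSF11B, TNFRSF21 and CD40, and the intracellular inhibitor CFLAR. They are 10 of the 19775 genes that have a microarray probe set of their own, and 9 of them were bright enough to test among 13185 genes. RNA of 2 long-established cell lines of human lung adenocarcinoma, PC9 and HCC827, both with an activating mutation of EGFR, was measured on 12 one-colour arrays. Cells grew for 8 days in RPMI medium with 10% serum, renewed after 4 days, together with either the solvent DMSO or 2 micromolar of erlotinib, which blocks the kinase of EGFR. There were 4 groups of 3 arrays. The DMSO cultures were started from fewer cells, in dishes, and the erlotinib cultures from more cells, in larger flasks, although the series description gives flasks throughout, so drug, cell number and possibly vessel cannot be told apart. Separate cultures behind the 3 arrays are not stated in the labels, and p-values then cover only the spread between these arrays.

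TNFSF10, better known as TRAIL, is a ligand that can kill tumour cells. It binds TNFRSF10A and TNFRSF10B (the death receptors DR4 and DR5), whose intracellular death domains, like that of FAS, recruit the adaptor FADD and the initiator caspases CASP8 and CASP10. TNFRSF10D, which has a truncated death domain, and the secreted TNFRSF11B (osteoprotegerin) act as decoys, and CFLAR (c-FLIP) resembles CASP8 but lacks its protease activity and limits its activation. In epithelial cells several of these genes are also known targets of NF-kB, interferon or p53.

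The arrays were similar in brightness, with median signals from 11.1 to 14.5, and within groups Pearson's r between arrays, taken over genes, lay between 0.993 and 0.997. All 5 epithelial markers examined (EPCAM, KRT8, KRT18, KRT19 and CDH1) were bright in every group, with summed signals from 10590 to 14439. The 4 leukocyte markers measured (PTPRC, CD3E, CD14 and NKG7) stayed under the table's median signal of 13 in every group, with summed signals from 4.3 to 14.6. Of 4 endothelial markers PECAM1 and CDH5 were present in PC9 (group means of 835 and 105 in DMSO, 506 and 178 in erlotinib), while VWF and TEK did not exceed 3.77 in any group mean. Of 4 fibroblast markers LUM went from 1.40 to 104 in PC9 and from 6 to 183 in HCC827, while DCN, PDGFRA and PDGFRB stayed at 7.63 or lower. Summed over all 4, the fibroblast markers ranged from 11.2 to 22.2 on DMSO arrays and from 94.1 to 207.8 on erlotinib arrays. The part of these markers in the results was not tested. The 3'/5' signal ratio of the actin control, which rises as RNA degrades or amplification shortens, was 3.03 ± 0.598 (SD, n = 3) on the HCC827 erlotinib arrays and between 2.17 and 2.22 in the mean of each other group. HCC827 results are therefore also given with that ratio as a covariate where the call was lost.

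Promoters were read from RefSeq (GRCh38.p14, 250 bases before to 50 after the start site) for 6 of the genes (TNFSF10, TNFSF15, FAS, CFLAR, TNFRSF21 and CD40), and 5 were found, all but CD40. The other 4 genes were not looked up. They are shown so that the sequence upstream of the ligands that rose, and of CFLAR with its several start sites, can be read beside the values. Each runs 5′ to 3′ on the gene's own strand, and capitals mark a motif match on either strand. The motifs searched were an interferon response element (TTTC, any 2 bases, TTTC), the STAT element GAS (TTCNNNGAA), a FOXO site (GTAAACA), an AP-1 site (TGANTCA) and the NF-kB consensus.
TNFSF10, chr3:172523381-172523680, minus strand: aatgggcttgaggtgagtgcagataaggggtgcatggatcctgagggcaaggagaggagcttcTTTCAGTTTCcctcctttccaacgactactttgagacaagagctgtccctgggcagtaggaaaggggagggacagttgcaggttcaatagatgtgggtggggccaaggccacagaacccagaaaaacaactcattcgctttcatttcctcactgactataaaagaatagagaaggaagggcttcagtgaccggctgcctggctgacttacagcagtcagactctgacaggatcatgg
TNFSF15, chr9:114792481-114792780, minus strand: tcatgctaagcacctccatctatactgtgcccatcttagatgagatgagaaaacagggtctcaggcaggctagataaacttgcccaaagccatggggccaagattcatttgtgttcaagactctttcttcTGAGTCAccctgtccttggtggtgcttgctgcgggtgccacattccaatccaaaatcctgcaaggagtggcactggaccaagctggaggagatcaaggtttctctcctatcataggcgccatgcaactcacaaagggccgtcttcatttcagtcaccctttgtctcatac
CFLAR, most upstream of 4 start sites, chr2:201118466-201118765, plus strand: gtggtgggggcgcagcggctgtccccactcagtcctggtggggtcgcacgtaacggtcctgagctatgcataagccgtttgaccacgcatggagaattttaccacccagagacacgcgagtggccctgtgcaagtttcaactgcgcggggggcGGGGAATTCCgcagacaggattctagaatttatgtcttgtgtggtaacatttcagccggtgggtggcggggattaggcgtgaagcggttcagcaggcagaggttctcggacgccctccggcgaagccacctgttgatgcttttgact
CFLAR, most downstream of 4 start sites, chr2:201140025-201140324, plus strand: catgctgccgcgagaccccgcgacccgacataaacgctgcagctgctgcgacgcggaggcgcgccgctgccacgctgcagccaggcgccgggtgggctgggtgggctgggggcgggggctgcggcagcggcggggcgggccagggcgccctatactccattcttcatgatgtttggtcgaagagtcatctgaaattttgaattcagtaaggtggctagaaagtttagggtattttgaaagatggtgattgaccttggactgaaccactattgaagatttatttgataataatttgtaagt
The TNFSF10 window holds 1 interferon response element match, at -187 to -178 relative to the start site, a motif found in 3.57% of 35116 promoters of the same length. The TNFSF15 window holds 1 AP-1 match (7.71% of promoters) and the upstream CFLAR window 1 NF-kB match (11.3%), while the downstream CFLAR window holds none of the 5 motifs. Windows not printed also held matches of these 2 motifs. For FAS, start site 1 of 3 had 1 AP-1 match and start site 3 had 1 NF-kB match. For CFLAR, start site 3 of 4 had 1 AP-1 match. The remaining windows, that of TNFRSF21 among them, held none. GAS and FOXO matches, found in 7.66% and 3.42% of promoters, were not found in any of the 10 windows read for these 5 genes. These matches describe letters only.

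In PC9, erlotinib-treated cells had more RNA of the ligands TNFSF10 and TNFSF15 and less of TNFRSF10A, TNFRSF10B, FAS and the decoy TNFRSF10D. Of the 9 genes tested, 8 changed at an adjusted p under 0.05 (Benjamini-Hochberg over all 13185 genes), 3 higher and 5 lower, where 64.7% of all genes tested changed, 36.3% higher and 28.3% lower. In HCC827 6 of the 9 changed, 3 higher and 3 lower, against 51.7% of all genes, 32.2% higher and 19.5% lower. CD40 passed the filter only through the HCC827 erlotinib arrays and so had to differ there. Without it 7 of 8 genes changed in PC9 (3 higher, 4 lower) and 5 of 8 in HCC827 (2 higher, 3 lower), with median log2 changes of -0.02 and 0.02. Changes of at least 2-fold were called for 3 of the 9 genes in PC9 (13.0% of all genes) and for 0 of them in HCC827 (7.23% of all genes). Treated and untreated arrays were fully apart for 9 of 9 genes in PC9 and 7 of 9 in HCC827, against 64.9% and 62.1% of all genes. Both of these counts include CD40, which was favoured by the filter in HCC827 and lies within background in PC9. The PC9 change differed from the HCC827 change for 7 of the 9 genes, 2 upward and 5 downward, where it differed for 45.2% of all genes, 21.2% upward and 23.9% downward. Without CD40 it differed for 6 of 8 genes, 2 upward and 4 downward. The median log2 change of the 9 was -0.21 in PC9 and 0.07 in HCC827, against 0.05 and 0.07 over all genes tested. Centring each array on its median shifts the median change of all genes by -0.15 in PC9, which matters below for the small changes.

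**Figure D1:**
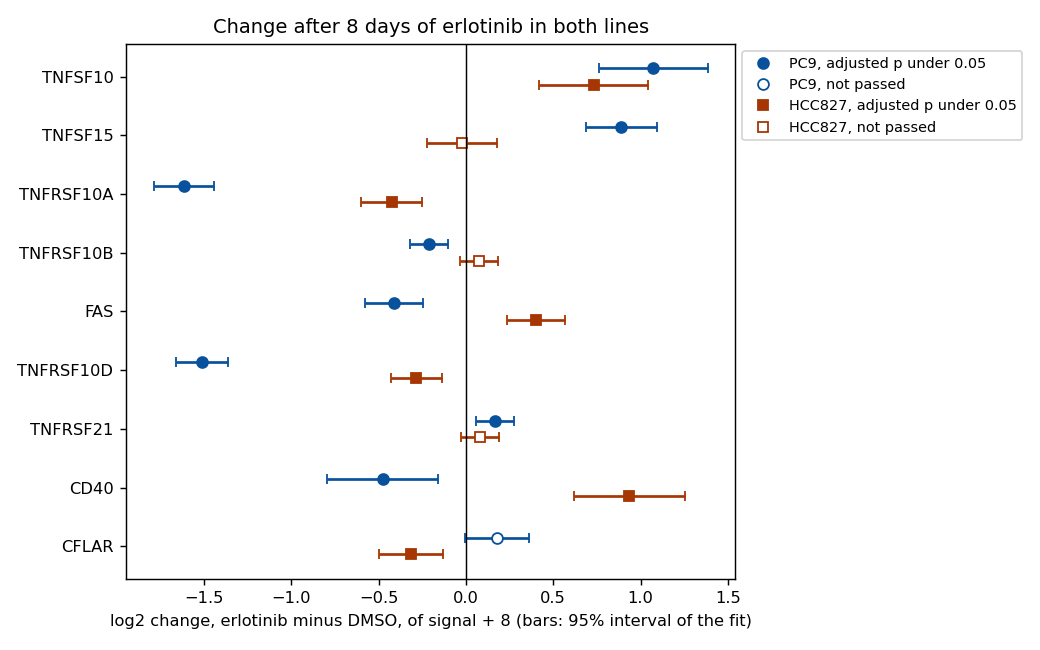
Log2 change of signal + 8 (x axis, erlotinib minus DMSO) of the 9 genes tested, for PC9 (circles) and HCC827 (squares); bars are 95% intervals of the limma fit and open symbols did not pass an adjusted p of 0.05. TNFRSF10A and TNFRSF10D lie near -1.6 and -1.5 in PC9 and closer to 0 in HCC827, and FAS lies on opposite sides of 0 in the lines; CD40 is drawn too, although its PC9 signals are within background.

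TNFSF10, the TRAIL ligand, rose in both lines from low signals. In PC9 its signals were 7.90, 10.6 and 15.1 in DMSO and 31.3, 35.8 and 28.9 in erlotinib. In HCC827 they were 37.0, 29.1 and 28.5 in DMSO and 58.5, 65.3 and 49.2 in erlotinib. The treatments did not overlap in either line, and on this probe set erlotinib-treated PC9 reached about the level of untreated HCC827. On the dimmer probe sets the mean of erlotinib-treated PC9 was lower than that of untreated HCC827, at 22.0 against 25.7 and 14.1 against 24.3. The log2 change of signal + 8 was 1.07 ± 0.15 (SE; adjusted p = 7.89e-06) in PC9 and 0.73 ± 0.15 (adjusted p = 5.77e-04) in HCC827. The changes did not differ between the lines at this precision (difference 0.34, 95% interval -0.10 to 0.78, adjusted p = 0.195). Since the PC9 DMSO mean of 11.2 lies under the table's median, the size of the PC9 rise depends on the constant added: it was 1.47 with 1 and 0.57 with 32, passing with each. All 3 TNFSF10 probe sets rose in both lines, by 0.76 to 1.09 in PC9 and 0.72 to 0.79 in HCC827. As bulk RNA was measured, a change within each cell and a change in which cells remain cannot be told apart, here or for the genes that follow.

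TNFSF15 (TL1A), a ligand first known from endothelium, rose in PC9 and not measurably in HCC827. Its PC9 signals were 63.7, 74.0 and 55.7 in DMSO and 130.4, 115 and 131.7 in erlotinib, without overlap. In HCC827 they were 338, 326 and 364 in DMSO and 326, 337 and 348 in erlotinib; the treatments overlapped. The log2 change was 0.89 ± 0.10 in PC9 (adjusted p = 5.14e-07) and -0.02 ± 0.10 in HCC827 (95% interval -0.23 to 0.18, adjusted p = 0.861), and the difference of 0.91 between lines passed (adjusted p = 4.85e-05). The dimmer second probe set also rose in PC9 (0.45) but fell by 0.41 in HCC827, from a mean of 21.1 to 14.1 (adjusted p = 0.0326).

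**Figure D2:**
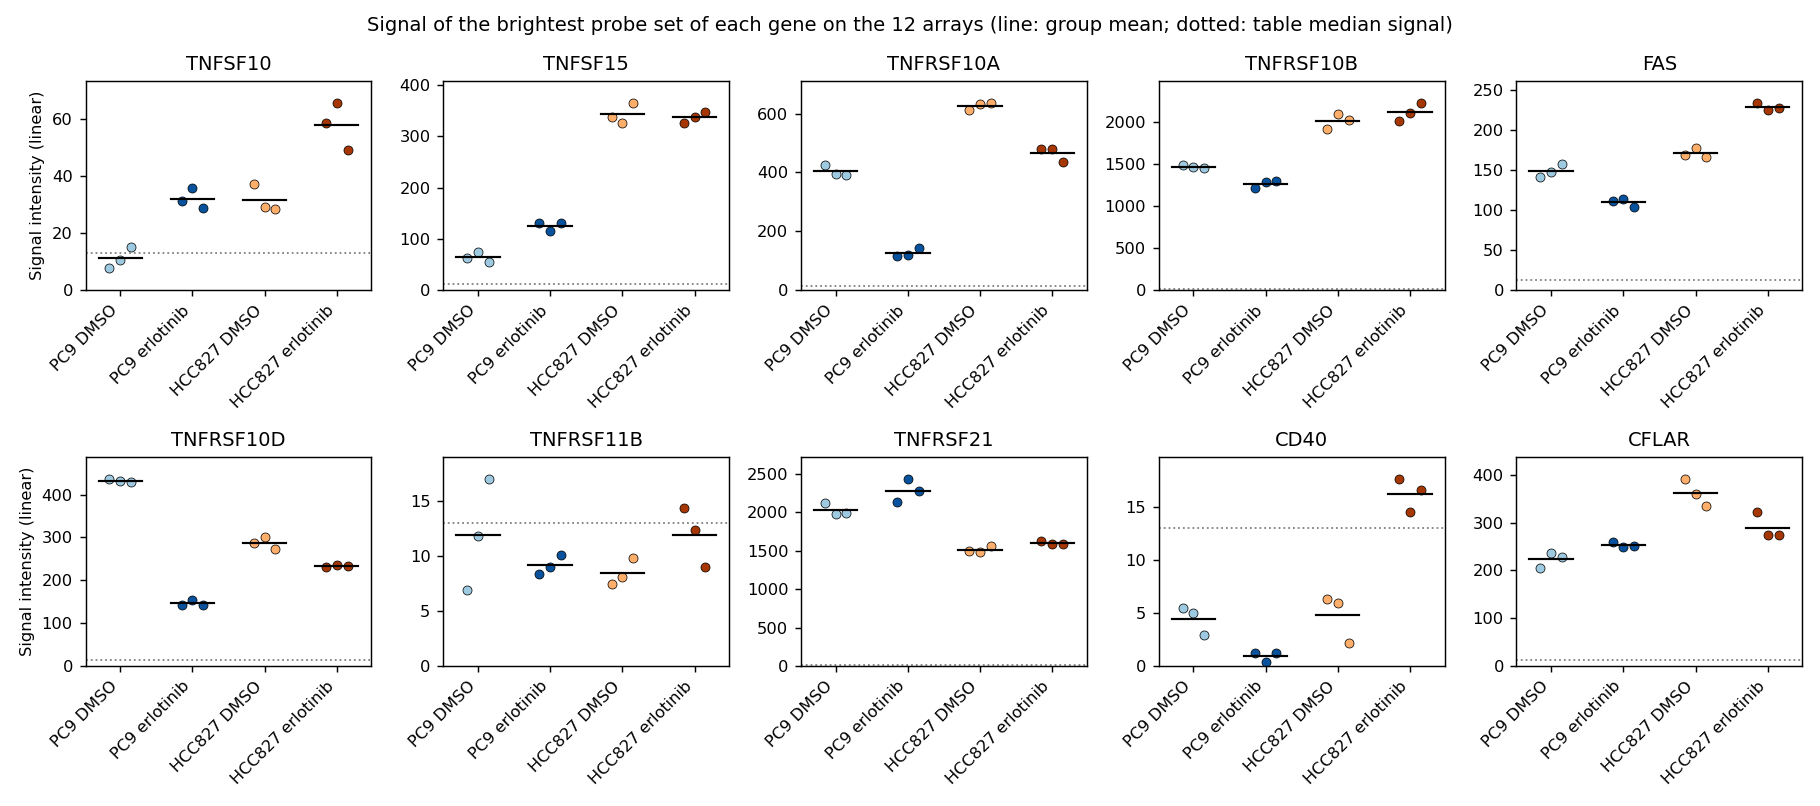
Signal intensity (linear y axis from 0, own scale per gene) of the brightest probe set of each of the 10 genes on all 12 arrays; points are arrays, lines are means of 3, and the dotted line is the table's median of 13. TNFRSF10A and TNFRSF10D drop in PC9 erlotinib arrays, while CD40 exceeds the table's median only on HCC827 erlotinib arrays and TNFRSF11B stays near or under it.

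TNFRSF10A (DR4), a death receptor for TRAIL, fell in both lines and further in PC9. In PC9 it read 426, 394 and 391 in DMSO and 116, 120 and 145 in erlotinib. In HCC827 it read 614, 634 and 634 in DMSO and 481, 479 and 437 in erlotinib. Treated arrays lay below all untreated ones in each line, and by far more in PC9. The log2 change was -1.61 ± 0.08 in PC9 (3.06-fold lower on the scale of signal + 8, adjusted p = 5.81e-11) and -0.43 ± 0.08 in HCC827 (adjusted p = 4.00e-04). The change was larger in PC9 by -1.19 ± 0.12 (adjusted p = 5.49e-07). With the actin ratio as a covariate the HCC827 change was -0.27 (adjusted p = 0.0874). All 3 probe sets of the gene fell in each line, with log2 changes from -1.61 to -1.17 in PC9 and from -0.60 to -0.42 in HCC827.

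TNFRSF10D, the decoy TRAIL receptor with a truncated death domain, followed the same course. Its PC9 signals of 436, 432 and 430 in DMSO became 143, 155 and 142 in erlotinib. Its HCC827 signals of 286, 301 and 273 became 230, 236 and 234. The log2 change was -1.51 ± 0.07 in PC9 (adjusted p = 1.79e-11) and -0.28 ± 0.07 in HCC827 (adjusted p = 0.00278), a difference of -1.23 ± 0.10 (adjusted p = 5.87e-08). In DMSO the gene was higher in PC9 than in HCC827 (log2 0.58, adjusted p = 1.06e-06) and in erlotinib it was lower in PC9 (log2 -0.64, adjusted p = 3.18e-07), so the order of the lines turned on this probe set. The covariate fit gave -0.27 (adjusted p = 0.0694) in HCC827. A second, dim probe set (group means from 4.57 to 17.1) also fell in both lines, by 0.73 and by 0.58 on the log2 scale, and there the lines did not differ at this precision in their change (-0.15, adjusted p = 0.66), and PC9 was on the higher side in DMSO (0.41) and in erlotinib (0.26, adjusted p = 0.205); the mean of the 2 probe sets gave a difference of -0.69.

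TNFRSF10B (DR5), the other death receptor for TRAIL, fell slightly in PC9 on its bright probe set. The signals there were 1491, 1459 and 1453 in DMSO and 1213, 1286 and 1298 in erlotinib, without overlap. In HCC827 they were 1917, 2090 and 2015 in DMSO and 2012, 2105 and 2218 in erlotinib, with overlap. The log2 change was -0.21 ± 0.05 in PC9 (adjusted p = 0.00168) and 0.07 ± 0.05 in HCC827 (95% interval -0.04 to 0.18, adjusted p = 0.254). The lines differed by -0.29 ± 0.07 (adjusted p = 0.00455), which was -0.22 (adjusted p = 0.0698) without HCC827 erlotinib replicates 2 and 3. On 2 dimmer probe sets the PC9 fall was larger: from 66.0 ± 3.79 to 33.3 ± 11.5 on one (log2 -0.88 ± 0.17) and from 65.3 ± 2.46 to 35.1 ± 8.64 on the other (log2 -0.79 ± 0.13). In HCC827 these sets had changes of -0.25 (adjusted p = 0.229) and -0.32 (adjusted p = 0.0448, lower), on the other side of 0 from the bright set, and on the latter the difference between the lines did not pass (-0.46, adjusted p = 0.0515). The size of the PC9 change therefore depends on the probe set, and the mean over all gave -0.58. With each array centred on its median it was -0.36.

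The lines went opposite ways for FAS, the receptor of FAS ligand. FAS read 141, 147 and 158 in PC9 DMSO and 111, 114 and 104 in PC9 erlotinib. It read 168, 178 and 166 in HCC827 DMSO and 233, 224 and 227 in HCC827 erlotinib. The treatments did not overlap in either line, and the signal fell in PC9 and rose in HCC827. The log2 change was -0.41 ± 0.08 (adjusted p = 2.25e-04) in PC9 and 0.40 ± 0.08 (adjusted p = 4.57e-04) in HCC827, and the difference of -0.82 ± 0.11 passed (adjusted p = 2.14e-05). In PC9 4 of the 5 FAS probe sets fell and 1 did not pass, with changes from -0.73 to -0.34. In HCC827 the brightest rose and the other 4 did not pass, with changes from 0.03 to 0.28, and the mean of all 5 gave 0.20 (adjusted p = 0.036). FAS ligand itself (FASLG) had group means from 2.80 to 7.20, under the filter.

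TNFRSF11B, the secreted decoy, was not tested, because neither of its probe sets reached the table's median in any group mean. Its brighter probe set read from 6.90 to 17 in PC9 and from 7.50 to 14.4 in HCC827, with overlapping treatments in PC9 and in HCC827. TNFRSF21 (DR6), a death-domain receptor without a known TNF-type ligand, was bright and nearly level. It read 2120, 1979 and 1986 in PC9 DMSO, 2139, 2432 and 2274 in PC9 erlotinib, 1500, 1483 and 1559 in HCC827 DMSO and 1622, 1589 and 1593 in HCC827 erlotinib. Its log2 change was 0.17 ± 0.05 in PC9 (adjusted p = 0.00933) and 0.08 ± 0.05 in HCC827 (adjusted p = 0.205), and the lines did not differ at this precision (0.09, 95% interval -0.07 to 0.24, adjusted p = 0.35). The PC9 call was lost with median centring (0.02, adjusted p = 0.802), with the mean of its probe sets (0.15, adjusted p = 0.0875) and without PC9 erlotinib replicate 2 (0.12, adjusted p = 0.0542). Its other probe set fell by 0.54 in HCC827 (adjusted p = 0.00224), and the mean of both gave -0.23 there (adjusted p = 0.016), so no direction holds for it in HCC827. That mean also gave a difference between the lines of 0.38 (adjusted p = 0.00839).

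CD40, a TNF receptor without a death domain best known from B cells, was near background except in erlotinib-treated HCC827. It read 6.30, 5.90 and 2.20 in HCC827 DMSO and 17.6, 14.5 and 16.6 in HCC827 erlotinib. In PC9 it read 5.50, 5 and 2.90 in DMSO and 1.2, 0.40 and 1.2 in erlotinib. The fitted log2 change was 0.94 in HCC827, 1.66 with 1 added to the signals and 0.39 with 32. Since only the HCC827 erlotinib mean of 16.2 reaches the filter of 13, this value is a description of a gene admitted by the group where it is high. In PC9 both means lie within background, and the fitted value (-0.48) is no measured fall. The other 3 CD40 probe sets did not reach the filter; their HCC827 means were 3.97, 1.67 and 0.567 in DMSO and 8.80, 3.97 and 3.60 in erlotinib.

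CFLAR (c-FLIP), the inhibitor of CASP8 activation, gave different answers on different probe sets. The brightest read 204.5, 236 and 228 in PC9 DMSO and 260, 249 and 251 in PC9 erlotinib, a log2 change of 0.18 ± 0.09 that did not pass (adjusted p = 0.0794) although the arrays did not overlap. In HCC827 it read 391, 360 and 334 in DMSO and 321, 274 and 274 in erlotinib, a change of -0.31 ± 0.09 (adjusted p = 0.00591). The HCC827 fall was -0.23 (adjusted p = 0.2) with the actin covariate and -0.16 (adjusted p = 0.304) without HCC827 erlotinib replicates 2 and 3. The difference between the lines, 0.49 ± 0.12 (adjusted p = 0.00368), was 0.41 (adjusted p = 0.0502) and 0.34 (adjusted p = 0.0826) in these fits.

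Of the 14 CFLAR probe sets 13 were bright enough to test, each singly among all probe sets. In PC9 8 of them rose, by log2 0.62 to 1.44 (1.53-fold to 2.71-fold, adjusted p of 3.99e-04 or lower), 0 fell (also 0 at an unadjusted limma p under 0.05) and 5 did not pass, among them the 2 brightest. The set with the largest rise, next in brightness after those 2, read 44.0, 33.3 and 41.3 in PC9 DMSO and 154, 114 and 98.8 in PC9 erlotinib, against 392, 367 and 405 in HCC827 DMSO. In HCC827 0 of 13 rose, 5 fell and 8 did not pass, with changes from -0.41 to 0.15. The PC9 change exceeded the HCC827 change on 10 of 13 probe sets. In DMSO all 13 were lower in PC9 than in HCC827, by log2 differences from -3.06 on that same set to -0.26 on the second brightest. In erlotinib 11 of 13 were still lower in PC9 (down to -1.72), and the 2 brightest did not pass. Averaged over all its probe sets, CFLAR rose in PC9 by 0.60 (adjusted p = 4.38e-06). Of the 14 probe sets 9 carry the suffix _x_at, which the maker gives to sets whose probes may also match other transcripts, and RefSeq lists 4 start sites for the gene; which transcript each set reads was not tested.

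**Figure D3:**
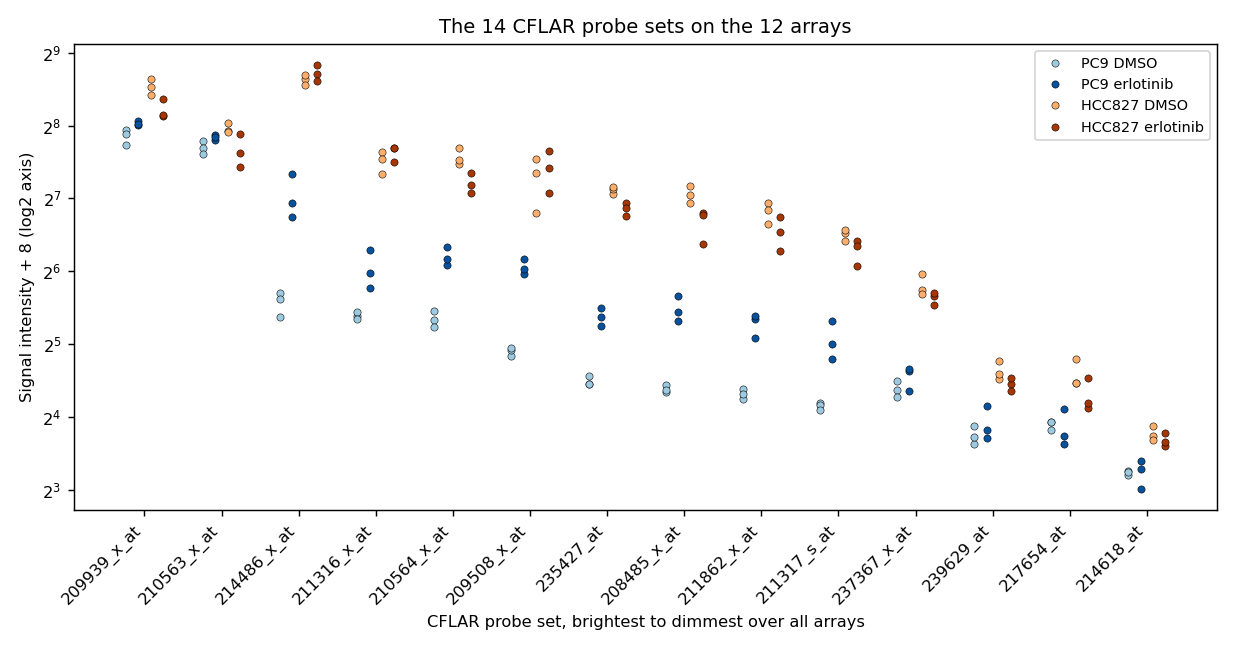
Signal + 8 (log2 y axis) of the 14 CFLAR probe sets, ordered from brightest to dimmest, on all 12 arrays; colours give the 4 groups of 3. On the 2 brightest sets PC9 and HCC827 lie closer together than on the 8 that follow, where the PC9 erlotinib arrays lie between PC9 DMSO and HCC827.

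**Figure D4:**
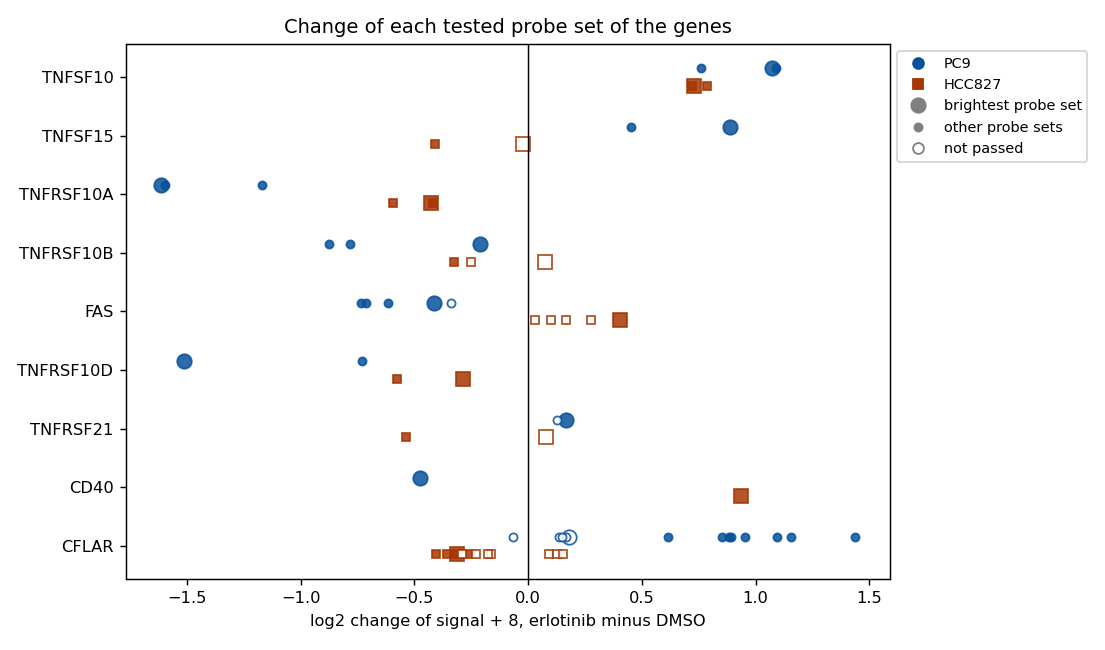
Log2 change of signal + 8 (x axis) of each tested probe set of the 9 genes in PC9 (circles) and HCC827 (squares); large symbols are the brightest set of a gene and open symbols did not pass. TNFSF10 and TNFRSF10A sets point one way in both lines, while TNFRSF21 sets in HCC827 and the size of the CFLAR change in PC9 depend on the set.

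Levels before treatment differed between the lines for most of these genes. PC9 DMSO was below HCC827 DMSO for 6 of the 9 and above it for TNFRSF10D and TNFRSF21 (log2 0.42 for the latter), and CD40 did not pass (-0.03, 95% interval -0.35 to 0.29); of all genes tested 76.2% differed, 39.4% lower and 36.8% higher in PC9. On the brightest probe sets the widest gap was that of TNFSF15 (log2 -2.28 ± 0.10, means of 64.5 against 343), whose second set gave -0.52, and the gap of TNFSF10 was -1.05. The gap for FAS was -0.19 (adjusted p = 0.0383), but 3 of its 5 probe sets did not pass there, 1 of them at 0.16, and 7 rather than 8 genes were called under several alternatives, median centring among them. In erlotinib PC9 was below HCC827 for 7 of the 9 genes (76.4% of all genes differed, 40.1% lower and 36.3% higher in PC9), above it for TNFRSF21, and CFLAR did not pass on its brightest probe set. CD40 is counted among the lower genes, but only its HCC827 erlotinib mean admitted it, so its place there is a description. The gap had widened for TNFRSF10A (-0.63 in DMSO, -1.82 in erlotinib), TNFRSF10B (-0.45 and -0.73) and FAS (-0.19 and -1.01), as the tested line differences above give. It had narrowed for TNFSF15 (-2.28 and -1.37), and on the second TNFSF15 set it had turned, from -0.52 to 0.34 (adjusted p = 0.0477). The gap had also narrowed for CFLAR on its brightest probe set (-0.68 and -0.18), a line difference that was lost in some of the fits above. From high to low the group means of TNFRSF10A ran HCC827 DMSO, HCC827 erlotinib, PC9 DMSO and PC9 erlotinib, with no overlap between neighbours. For TNFSF10, on its brightest probe set, they ran HCC827 erlotinib, then PC9 erlotinib and HCC827 DMSO with overlapping arrays (32 and 31.5), then PC9 DMSO.

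Of 16 other ligands listed, 7 were tested, 7 were under the filter, 1 was found only on shared probe sets and 1 was not analysed here. In PC9 4 of the 7 rose, 1 fell and 2 did not pass (median 0.45), and in HCC827 5 rose, 0 fell and 2 did not pass (median 0.72), where 36.3% of all genes were higher and 28.3% lower in PC9, and 32.2% and 19.5% in HCC827. TNF and TNFSF4 passed the filter only through erlotinib arrays and so had to differ; without them 2 of 5 ligands rose and 1 fell in PC9 (median -0.08), and 3 of 5 rose in HCC827 (median 0.47). TNF itself, the founding inflammatory cytokine, went from 1.00 ± 1.04 to 21.1 ± 6.12 in PC9 and from 1.27 ± 1.42 to 43.9 ± 0.889 in HCC827. Its fitted log2 changes (1.68 and 2.5) are set against background signals and describe a gene admitted by those groups. TNFSF4 (OX40 ligand) had fitted changes of 2.16 in PC9 and 0.80 in HCC827, on the same terms. LTB rose by 0.45 in PC9 and 1.38 in HCC827, though with median centring the PC9 change of LTB was 0.30 (adjusted p = 0.0702). TNFSF13 (APRIL) rose by 1.49 in PC9, with 0.31 in HCC827 (adjusted p = 0.0841). The HCC827 change of TNFSF13 passed under several settings, such as the constant 32 (0.27, adjusted p = 0.0339) and 1 line alone (0.31, adjusted p = 0.0178). CD70 rose by 0.72 in HCC827 (adjusted p = 0.00968), which missed the threshold with 1 added to the signals (adjusted p = 0.0689), with the actin covariate (adjusted p = 0.0758) and without HCC827 erlotinib replicates 2 and 3 (adjusted p = 0.0972). The ligand that fell in PC9, named after its value was seen, was TNFSF9 (-0.43), which rose by 0.47 in HCC827. TNF, TNFSF4, LTB and CD70 had DMSO means of 16.7 or lower in both lines, so the sizes of their changes depend on the constant added.

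Of 22 other receptors 12 were tested, 9 were under the filter, TNFRSF10C (the remaining decoy TRAIL receptor, group means from 1.77 to 9.5) among them, and 1 lay on shared probe sets only. In PC9 4 rose, 2 fell and 6 did not pass (median 0.07), and in HCC827 5 rose, 2 fell and 5 did not pass (median 0.23). That is 6 of 12 called in PC9 and 7 of 12 in HCC827, against 64.7% and 51.7% of all genes. TNFRSF9 (4-1BB) rose by 1.40 and TNFRSF14 (HVEM) by 1.19 in PC9, and TNFRSF19 (TROY) by 1.27 in PC9 and 1.06 in HCC827. The HCC827 change of TNFRSF9 was 0.22 (adjusted p = 0.253), and 0.40 (adjusted p = 0.0088) with the mean of its probe sets. From DMSO to erlotinib the PC9 means went from 1.13 to 16.6 for TNFRSF9 and from 5.83 to 23.8 for TNFRSF14. For TNFRSF19 they went from 5.4 to 24.4. These DMSO means lie under the table's median, so the sizes of these PC9 rises depend on the constant added. The remaining rise in PC9, named after its value was seen, was TNFRSF25 (0.54). TNFRSF1B, the second TNF receptor, fell by 0.94 in PC9 and rose by 0.48 in HCC827. TNFRSF11A (RANK) fell by 0.54 in PC9 and rose by 0.64 in HCC827. The HCC827 rise of TNFRSF1B was 0.30 (adjusted p = 0.379) with the actin covariate, 0.37 (adjusted p = 0.233) without HCC827 erlotinib replicates 2 and 3, 0.45 (adjusted p = 0.0559) without HCC827 DMSO replicate 3 and 0.39 (adjusted p = 0.0819) without HCC827 erlotinib replicate 2. TNFRSF4 rose by 0.40 in HCC827, which was 0.39 (adjusted p = 0.0651) with the covariate and 0.29 without HCC827 erlotinib replicates 2 and 3. Its PC9 change was -0.12 (adjusted p = 0.302). With quantile scaling that was -0.36 (adjusted p = 0.00449) and with median centring -0.27 (adjusted p = 0.037). The other rises in HCC827, named after their values were seen, included LTBR (0.34), and TNFRSF12A fell by 0.35 there. With the actin covariate only TNFRSF11A and TNFRSF19 of these receptors were still called in HCC827. The calls of LTBR and TNFRSF12A were therefore lost in that fit. TNFRSF1A, the main death receptor for TNF, had a change of 0.02 in PC9 (adjusted p = 0.769) and -0.16 in HCC827 (adjusted p = 0.046), a call that was lost under several settings, such as the covariate (adjusted p = 0.23) and leaving out any 1 of the HCC827 arrays.

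Of 27 genes of death signalling inside the cell, 21 were tested, 1 was under the filter and 5 were not analysed here. In PC9 11 rose, 3 fell and 7 did not pass (median 0.51), where 36.3% of all genes were higher and 28.3% lower. In HCC827 10 rose, 3 fell and 8 did not pass (median 0.24), where 32.2% of all genes were higher and 19.5% lower. That is 14 of 21 called in PC9 and 13 of 21 in HCC827, against 64.7% and 51.7% of all genes. CASP10, an initiator caspase, went from 34.7 ± 4.5 to 154 ± 9.27 in PC9 (log2 1.93, adjusted p = 2.69e-11) and rose by 0.31 in HCC827, where the call was lost with median centring (0.23, adjusted p = 0.0532), with the mean of its probe sets (0.14, adjusted p = 0.182) and without HCC827 erlotinib replicates 2 and 3 (0.32, adjusted p = 0.0857). CASP8 had a change of -0.26 in PC9 (adjusted p = 0.113) and fell by 0.54 in HCC827 (adjusted p = 0.00383), which was -0.52 (adjusted p = 0.0622) without HCC827 erlotinib replicates 2 and 3. The PC9 change of CASP8 was -0.40 (adjusted p = 0.00967) with median centring and -0.41 (adjusted p = 0.00962) without PC9 DMSO replicate 1. FADD fell by 0.38 in PC9 (adjusted p = 1.88e-04), with -0.03 in HCC827 (adjusted p = 0.755). The other falls in PC9, named after their values were seen, were those of MLKL, the executioner of necroptosis (-1.42), and DAP3 (-0.34). MLKL fell in HCC827 too (-0.51, adjusted p = 3.92e-05), while DAP3 had a change of 0.05 there (adjusted p = 0.451).

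Of the adaptors and regulators on the same list, TRAF1 rose by 2.13 in PC9, from 4.67 ± 1.68 to 47.3 ± 6.26. Its PC9 DMSO mean lies under the table's median, so the size of this rise depends on the constant added. CYLD, a deubiquitinase that restrains NF-kB, rose by 2.05 in PC9 and 0.78 in HCC827, and TRAF5 by 1.48 and 0.61. The HCC827 rise of TRAF1 (0.48) was lost under several settings, such as median centring (0.40, adjusted p = 0.0574) and the actin covariate (0.60, adjusted p = 0.104), and was 0.25 (adjusted p = 0.445) without HCC827 erlotinib replicates 2 and 3. Leaving out HCC827 DMSO replicate 1 gave 0.42 (adjusted p = 0.0967), leaving out HCC827 DMSO replicate 3 gave 0.35 (adjusted p = 0.137), and the value was 0.31 (adjusted p = 0.158) without HCC827 erlotinib replicate 2. BID, the link from CASP8 to mitochondria, rose by 0.51 in PC9 and 0.61 in HCC827, the latter 0.43 (adjusted p = 0.053) with the actin covariate. PEA15, a death effector domain protein that can block FADD signalling, rose by 0.60 in each line. XIAP, a caspase inhibitor, had a change of 0.15 in PC9 (adjusted p = 0.233) and fell by 0.39 in HCC827 (adjusted p = 0.00745), where it missed the threshold (-0.32, adjusted p = 0.148) without HCC827 erlotinib replicates 2 and 3.

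**Figure D5:**
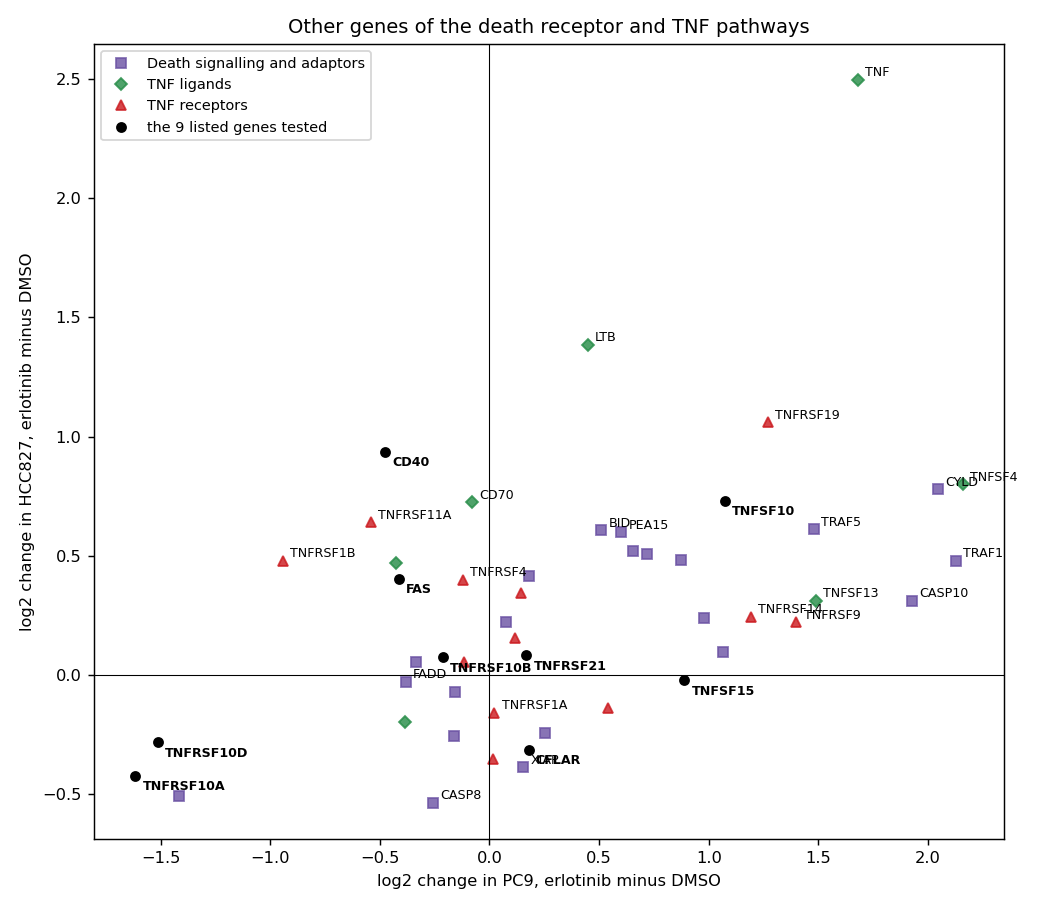
Log2 change in PC9 (x axis) and HCC827 (y axis) of the 40 tested genes of the 3 lists (coloured symbols; those named by rule are labelled) and of the 9 listed genes tested (black circles). TNF lies highest in HCC827 at 2.5, TNFSF4, TRAF1 and CYLD lie above 2 in PC9, and TNFRSF10A and TNFRSF10D lie at the far left.

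For the 3 genes that changed at least 2-fold in a line, the genes most like them were sought among 9673 genes with a group mean of at least 100, by Pearson correlation of log2 signals over the 12 arrays. The arrays share 4 groups, so these values describe the group pattern. Nearest to TNFRSF10A were the gap junction gene GJB2 (r = 0.996), the FK506-binding chaperone gene FKBP5 (r = 0.995) and GRPEL1 (r = 0.995). Nearest to TNFRSF10D were the decoy interleukin-1 receptor IL1R2 (r = 0.991), RBM12 (r = 0.991) and the phosphate transporter SLC20A1 (r = 0.990); IL1R2 fell by 3.26 in PC9 and by 0.76 in HCC827. Nearest to TNFSF10 were MOSPD1 (r = 0.977), BIRC2 (r = 0.974), which encodes the inhibitor of apoptosis cIAP1, and the autophagy kinase gene ULK2 (r = 0.974). BIRC2, also a gene of the signalling list, rose by 0.87 in PC9 and 0.48 in HCC827. In the RefSeq annotation the 4 TRAIL receptor genes TNFRSF10B, TNFRSF10C, TNFRSF10D and TNFRSF10A stand side by side, with 0 other protein-coding genes between them. TNFRSF10D and TNFRSF10A, which fell at least 2-fold in PC9, are both in that row. So are TNFRSF10B, with -0.21 in PC9 on its bright probe set, and TNFRSF10C, which was under the filter. The part of gene position in these changes was not tested.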

How the data were processed

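RNeasy Plus columns were used for extraction and NuGEN Ovation reagents for amplification and biotin labelling, per the labels' protocols. The authors deposited linear intensity values, 1 for each probe set on an array, made with MAS5 (version not given), per the submitters' processing notes; the values show a common 2% trimmed mean of 150.0 on every array, and no detection calls were used here. The number of arrays limits the precision.

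The 54675 probe sets comprise 62 controls, 41091 that the platform annotation gives a single symbol, 1801 that share symbols and 11721 left unnamed. All 10 symbols matched RefSeq by gene ID. Each gene is read by its brightest probe set (mean of log2 values), and genes with at least 1 group mean at the table's median (13) were kept. Tests used log2(signal + 8) in limma 3.58.1 (R 4.3.3), with 1 mean per group over all 12 arrays, moderated variances with an intensity trend and Benjamini-Hochberg adjustment; fold changes on this scale understate the change of dim genes. The procedure was tested on simulated data. The genes and lists were chosen with earlier results of these data known. Named genes were all members, up to 4 called genes with the largest change per list and line, CASP8, FADD, XIAP, TNFRSF1A and FASLG, and the 3 genes most like each member changed 2-fold. Alternatives were other constants (1, 32), scalings, filters, probe set rules and variances, 1 line alone, a 1.5-fold threshold test, the replicate number as a block, the actin ratio as a covariate and leaving out arrays.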

Additional observations from a re-analysis of the deposited data

Results flagged for a closer look

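The change with erlotinib differed between the lines, by the limma test of the difference (PC9 change minus HCC827 change, log2, adjusted over all 13185 genes), for 7 of the 9 genes tested, against 45.2% of all genes. The values were 0.91 for TNFSF15, -1.19 for TNFRSF10A, -0.29 for TNFRSF10B, -0.82 for FAS, -1.23 for TNFRSF10D, 0.49 for CFLAR and -1.41 for CD40. The CFLAR difference was 0.41 (adjusted p = 0.0502) with the actin covariate and 0.34 without HCC827 erlotinib replicates 2 and 3. In the latter fit the TNFRSF10B difference was -0.22. The second, dim TNFRSF10D probe set gave a difference of -0.15 (adjusted p = 0.66). FAS fell in PC9 and rose in HCC827, while TNFRSF10A and TNFRSF10D fell in both lines and further in PC9. CD40 passed the filter only through the HCC827 erlotinib arrays and lies within background in PC9, so its value is a description. Without CD40 the lines differed for 6 of 8 genes.

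Among the other ligands named by rule the lines differed for TNF (-0.82), LTB (-0.94), CD70 (-0.80) and TNFSF13 (1.18), and for TNFSF4 (1.36). Among the other receptors named by rule they differed for TNFRSF1B (-1.42), TNFRSF4 (-0.52), TNFRSF9 (1.18), TNFRSF11A (-1.18) and TNFRSF14 (0.95). Of the signalling genes named by rule they differed for FADD (-0.35), CASP10 (1.62), XIAP (0.54), CYLD (1.27), TRAF1 (1.65) and TRAF5 (0.87). TNFSF9 (-0.89), TNFRSF12A (0.37), TNFRSF25 (0.68), MLKL (-0.91) and DAP3 (-0.39), named after their values were seen, also differed. So did BIRC2 (0.39), named as a gene most like TNFSF10. TNFRSF1B, TNFRSF11A and TNFSF9, like FAS, fell in PC9 and rose in HCC827. The HCC827 rise of TNFRSF1B was lost under several settings, such as the actin covariate (0.30, adjusted p = 0.379). That of FAS passed on its brightest probe set only. TNF and TNFSF4 passed the filter only through erlotinib arrays, and the TNF difference missed the threshold with 1 added to the signals (-0.93, adjusted p = 0.217). The TNFRSF4 difference was -0.20 (adjusted p = 0.139) with the mean of its probe sets and -0.41 (adjusted p = 0.0807) without HCC827 erlotinib replicates 2 and 3. The FADD difference was -0.30 (adjusted p = 0.0859) with the actin covariate and -0.35 (adjusted p = 0.052) without those replicates, where that of XIAP was 0.48 (adjusted p = 0.0857). The CD70 difference (adjusted p = 0.0403) missed the threshold under most alternatives.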

How the results depend on the processing

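Tested against a 1.5-fold change, fewer genes were called by limma: 4 of the 9 in PC9, 0 in HCC827, 3 for the line difference, 2 between DMSO groups and 5 between erlotinib groups, with 2200 genes in PC9 and 1076 in HCC827. The lists then gave 3 ligands in PC9 and 2 in HCC827, 3 receptors and 0, and 8 signalling genes and 0; at an unadjusted p under 0.05 each of the 3 counts of 0 in HCC827 was 1. With the actin ratio as a covariate 3 of the 9 were called in HCC827, with 4149 genes and 2 other receptors. Without HCC827 erlotinib replicates 2 and 3, 4399 genes, 2 other receptors and 8 signalling genes were called in HCC827. The stricter filter left 2 ligands called in PC9, 1 in HCC827 and 3 other receptors in PC9, and gave no value for TNFSF10 and CD40.

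These changes, none of them called in the main analysis, turned sign. In HCC827 TNFRSF10B was -0.0026 with median centring and -0.20 with the mean of its probe sets, TNFRSF21 was -0.23 with the latter. TNFRSF1A in PC9 was -0.12 with median centring. The line difference was -0.27 for TNFRSF19, 0.036 for BID and -0.0013 for PEA15 with the constant 32, 0.075 for BID with the covariate, and -0.022 and -0.070 for PEA15 with quantile and median scaling. Leaving out each array in turn gave ranges that cross 0 for TNFSF15 in HCC827 (-0.057 to 0.020), CD70 in PC9 (-0.35 to 0.092), TNFRSF1A in PC9 (-0.039 to 0.060), FADD in HCC827 (-0.065 to 0.026) and the PEA15 line difference (-0.035 to 0.047). Where a setting does not itself show the cause, the cause was not tested.

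Same-numbered arrays showed no clear shared deviation (r from -0.25 to -0.02 in PC9 and from 0.01 to 0.13 in HCC827). With so few arrays these values cannot decide whether the numbers mark pairs. With the replicate number as a block 8 of the 9 genes were called in PC9, 6 in HCC827, 7 for the line difference, 7 between DMSO groups and 9 between erlotinib groups.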
